A study of Rattus norvegicus with 9 samples.

Results

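Astrocytes and cells of the oligodendrocyte lineage are the macroglia of the cortex, and both arise from the neural progenitors that first make neurons. Astrocytes clear glutamate and potassium around synapses and supply neurons with lipid and metabolites. Oligodendrocyte precursors divide, pass through a committed stage and then build myelin, so the genes of this lineage are commonly read as stages. The 30 genes described here are 16 astrocyte genes and 14 oligodendrocyte lineage genes, taken by symbol from the 32623 entries of the expression table, where each is present once.

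The RNA came from primary cortical cell cultures of wild-type Wistar rat embryos of embryonic day 16 to 18, labelled as cortical neurons, and polyadenylated RNA was sequenced in 9 libraries, 3 per group. The ACS group received alternating current and the DCS group direct current (written DES in some labels). In both labels this was 3 µA and 20 Hz, in sessions of 20 min over 7 days. The study describes daily sessions, and it gives the frequency for ACS. The control group was not stimulated. The sample labels place the cultures at day 7 in vitro, while the growth protocol runs to day 14, and whether replicate libraries are separate cultures is not stated in the sources used here. The p-values thus cover the spread between these samples only, which may be technical. The medium was Neurobasal with B27, a medium made for neurons. In such bulk RNA, fewer cells of a type and less RNA per cell cannot be told apart.

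The libraries summed to 49039412 to 68690760 estimated counts. Marker genes of neurons were the largest marker group, with a summed level of 2502 to 2627 FPKM (fragments per kilobase of transcript, scaled to the depth of the library) in ACS, 2380 to 2556 FPKM in DCS and 2389 to 2442 FPKM in control libraries. The 16 astrocyte genes summed to 1180 to 1353 FPKM in ACS, 1232 to 1276 FPKM in DCS and 1306 to 1314 FPKM in control libraries, and the 14 oligodendrocyte lineage genes to 221 to 244, 229 to 257 and 225 to 263 FPKM in the same order. Microglial markers summed to 105 to 111 FPKM in ACS, 113 to 117 FPKM in DCS and 103 to 111 FPKM in control libraries. The microglial sums of DCS thus lay above all others. Markers of endothelial cells reached at most 0.628 FPKM, of ependymal cells 0.863 FPKM and of fibroblasts and mural cells 3.23 FPKM. Markers of Schwann cells summed to 19.0 to 21.4 FPKM, with 5 of the 6 genes averaging under 1 FPKM. The label of cortical neurons therefore covers cultures with RNA of both macroglial lineages and of microglia. Of the marker genes, Rbfox3, a neuronal nuclear protein, was higher in ACS than in control libraries (log2 fold change 0.43, adjusted p = 0.0081), and so was C1qa, a complement subunit made by microglia (0.76, adjusted p = 0.0252). Each was the only call among 11 tested markers of its cell type, beside 2.83% of all genes called higher. The median log2 fold change was 0.04 over the 11 neuronal markers. For the 11 microglial markers it was 0.008, with a range of -0.57 to 1.31. The part of these markers in the results below was not tested.

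**Figure D1:**
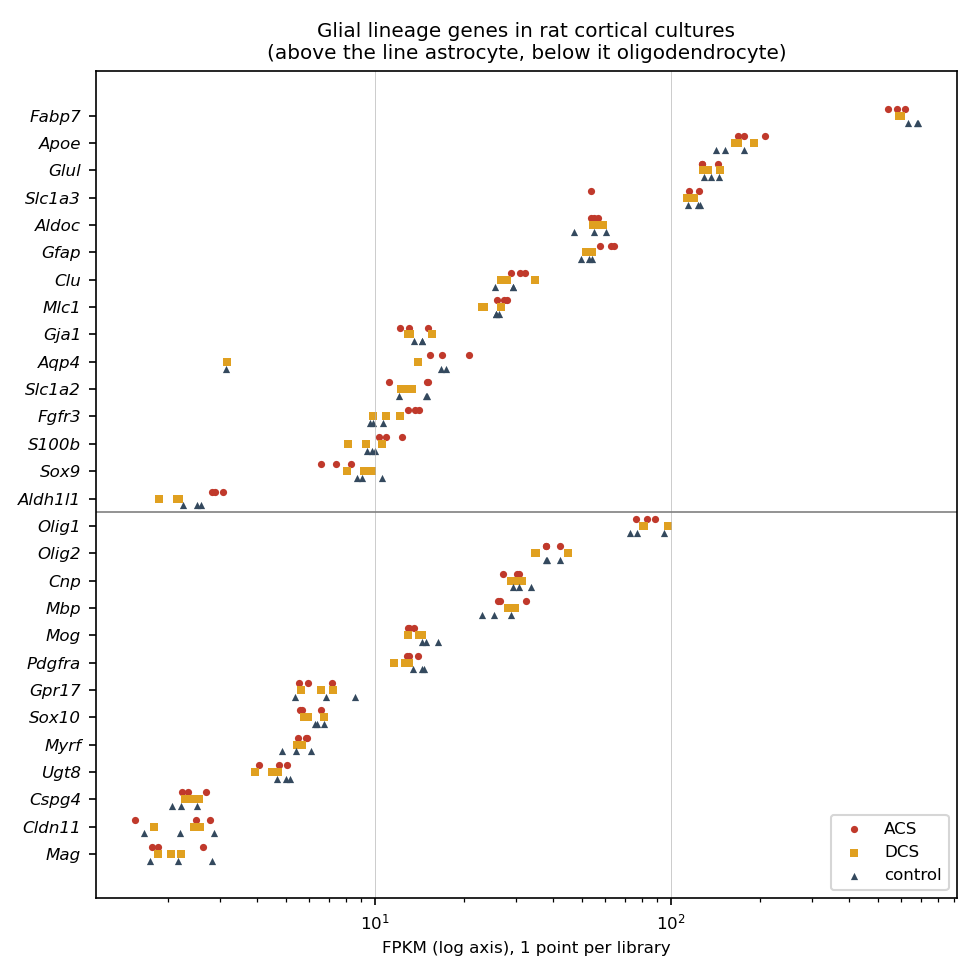
FPKM on a log axis for the 28 genes with a mean of at least 1 FPKM, 1 point per library, with ACS, DCS and control libraries from top to bottom within each gene. Fabp7 leads the astrocyte genes and Olig1 the oligodendrocyte lineage genes, and the groups lie close together except for single low libraries of Aqp4 and Slc1a3.

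Per length, the order of the genes was steep. Fabp7, the brain fatty acid binding protein of radial glia and immature astrocytes, averaged 612 FPKM over the 9 libraries and made up 44.7% to 52.0% of the astrocyte sum. It was followed by Apoe, the lipid carrier secreted by astrocytes (172 FPKM), Glul, glutamine synthetase (135 FPKM), and Slc1a3, the glutamate transporter GLAST (111 FPKM). Slc1a2, the glutamate transporter GLT-1 that dominates in adult astrocytes, averaged 13.5 FPKM. Its estimated counts were 500 to 938, against 2013 to 3450 for Gja1 at a like mean of 13.8 FPKM. The length assigned to the Slc1a2 entry is thus shorter than that of Gja1. Whether the Slc1a2 entry covers the whole gene was not tested, so its place in this order is uncertain. Gjb6, the gap junction protein connexin 30 of mature astrocytes, was listed at 0 to 0.0538 FPKM with estimated counts of 0 to 7, and it was the single gene of the 30 that failed the filter on low counts.

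In the oligodendrocyte lineage the transcription factor genes Olig1 and Olig2 were highest. Olig1 averaged 83.4 FPKM (32.3% to 38.0% of the sum of the 14 genes) and Olig2, its neighbour on chromosome 11 in the table's coordinates, 38.9 FPKM. The myelin genes covered a wide range, with 30.2 FPKM for Cnp, an enzyme already present in precursors, 27.6 FPKM for Mbp, myelin basic protein, 2.12 FPKM for Mag, an adhesion protein of myelin, and 0.145 FPKM for Mobp, a protein of compact myelin whose estimated counts were 0 to 75. Of 18 other myelin genes in the table, 13 averaged under 1 FPKM, and the highest was Tf, transferrin, at 19.8 FPKM.

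To examine which glial genes differed under ACS, the 29 genes that passed the filter were read from a fit over 16284 genes. Gfap and Fgfr3 were higher in ACS than in control libraries, none was lower, and the other 27 did not pass the test. Over all genes tested, 4.16% were called in this comparison (2.83% higher and 1.33% lower), so the count of 2 in 29 is near the background. Both genes belong to the astrocyte group, where 2 of 15 tested were called, and none of the 14 oligodendrocyte lineage genes was. The median log2 fold change was 0.08 for the astrocyte genes, -0.07 for the oligodendrocyte lineage genes and -0.0029 for all genes tested.

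Gfap encodes the intermediate filament of astrocytes, which is known to rise when astrocytes mature or react to injury. Its level was 62.6, 57.5 and 64.3 FPKM in ACS libraries, 52.7, 51.7 and 54.0 FPKM in DCS libraries, and 49.6, 53.9 and 53.0 FPKM in control libraries. All 3 ACS libraries were above all 6 others, while DCS and control libraries overlapped. The log2 fold change of ACS over control was 0.25 (standard error 0.05, adjusted p = 0.0281, edgeR quasi-likelihood test). ACS over DCS gave a log2 difference of nearly the same size, 0.24 (standard error 0.05), which did not pass the test (adjusted p = 0.0730). DCS over control was 0.01 (95% interval -0.11 to 0.12). The log2 fold change of ACS over control stayed between 0.22 and 0.30 over 20 alternatives, and the call missed the threshold without ACS library 1 (adjusted p = 0.112), ACS library 3 (0.0834), control library 1 (0.115) or control library 2 (0.0744), and when the 6 libraries were fitted alone (0.0537).

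Fgfr3 encodes a fibroblast growth factor receptor carried by astrocytes and their progenitors. It stood at 14.1, 13.7 and 12.9 FPKM in ACS libraries, 12.1, 10.9 and 9.89 FPKM in DCS libraries, and 9.60, 9.87 and 10.6 FPKM in control libraries. The ACS libraries lay above every other library, and the DCS libraries reached from within the control range to above it. The log2 fold change of ACS over control was 0.45 (standard error 0.08, adjusted p = 0.0185). ACS over DCS was 0.33 (standard error 0.08, adjusted p = 0.109), and DCS over control 0.12 (standard error 0.08, adjusted p = 0.739). Over 20 alternatives the log2 fold change stayed between 0.40 and 0.49, and the call missed the threshold without ACS library 1 (adjusted p = 0.0787), ACS library 2 (0.0758), control library 1 (0.0837) or control library 2 (0.0873).

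The genes of both calls lie on the minus strand. In the coordinates of the table, Gfap is at chromosome 10, 90990762 to 90999506, and Fgfr3 at chromosome 14, 82273070 to 82287706. The paper names the genome as GRCh38, a human build name, and no rat build is named in the sources used here. RefSeq promoters of the rat assembly GRCr8 were matched for 24 of the 30 genes. The 250 bases before the start of these 2 genes are shown because they are the genes that passed the test, with each CG dinucleotide in capitals, at chr10:88361662-88361911 and chr14:81227210-81227459 of GRCr8, minus strand, 5′ to 3′.
Gfap: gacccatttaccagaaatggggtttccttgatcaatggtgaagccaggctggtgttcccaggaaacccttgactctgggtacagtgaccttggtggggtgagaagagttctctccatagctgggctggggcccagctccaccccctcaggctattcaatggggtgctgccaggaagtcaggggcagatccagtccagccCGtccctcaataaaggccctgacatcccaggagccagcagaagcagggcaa
Fgfr3: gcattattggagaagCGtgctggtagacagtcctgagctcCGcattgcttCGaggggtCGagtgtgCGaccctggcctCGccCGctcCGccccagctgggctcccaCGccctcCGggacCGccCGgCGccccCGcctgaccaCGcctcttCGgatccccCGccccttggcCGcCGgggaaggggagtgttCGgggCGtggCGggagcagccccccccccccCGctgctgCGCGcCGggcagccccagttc

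The windows differ in composition. The Gfap window holds 1 CG dinucleotide and 57.6% G and C, and the Fgfr3 window holds 26 and 74.4%, against medians of 5 and 51.2% over the 33469 promoters of the table. The letters TTGGC, bound by nuclear factor I, a family known from astrocyte development, were searched on both strands. They were present in the Fgfr3 window and not in the Gfap window. Counted by gene, 15 of the 24 had a match, and counted by promoter, 40.3% of all promoters did, so the units of these values differ. The STAT motif TTCNNNGAA was found for none of the 24 genes and in 7.67% of all promoters.

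**Figure D2:**
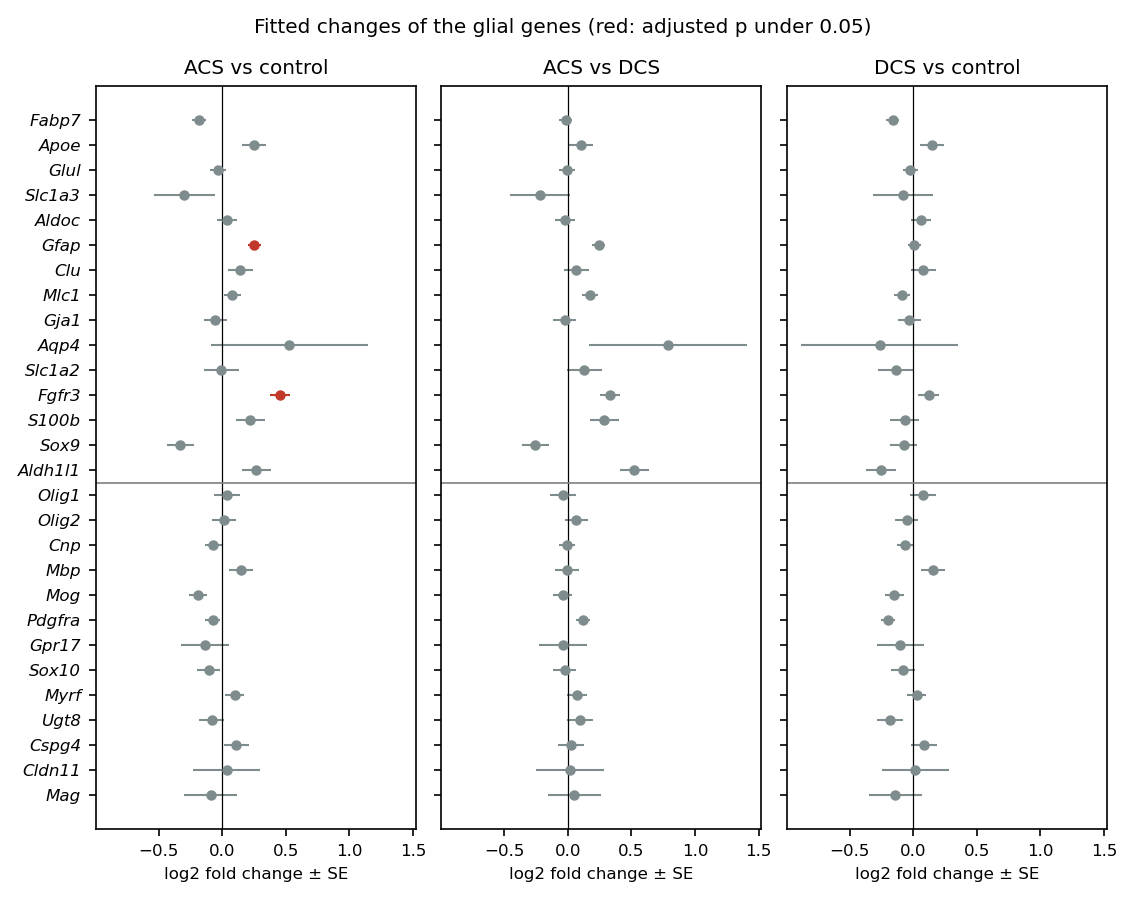
Log2 fold changes with standard errors from the edgeR fit for the 28 genes with a mean of at least 1 FPKM, in 3 panels for ACS vs control, ACS vs DCS and DCS vs control, with astrocyte genes above the grey line and oligodendrocyte lineage genes below it. Red points passed an adjusted p of 0.05, which only Gfap (0.25) and Fgfr3 (0.45) did, both in ACS vs control, and Aqp4 has the widest bars of the 28.

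Among the other filament and cytosolic genes, the folate enzyme gene Aldh1l1 separated the 2 currents most. It measured 2.82, 2.88 and 3.07 FPKM in ACS libraries, 1.87, 2.18 and 2.15 FPKM in DCS libraries, and 2.51, 2.59 and 2.25 FPKM in control libraries. The ACS libraries were highest and the DCS libraries lowest, with no overlap between any of the 3 groups. ACS over DCS was 0.52 on the log2 scale (standard error 0.12, adjusted p = 0.0809), ACS over control 0.27 (adjusted p = 0.225) and DCS over control -0.26 (adjusted p = 0.695), so none passed the test. S100b, a calcium binding protein of astrocytes, was at 10.9, 12.4 and 10.4 FPKM in ACS, 10.6, 9.31 and 8.12 FPKM in DCS and 9.76, 10.04 and 9.41 FPKM in control libraries. The ACS libraries of S100b cleared the controls but overlapped the DCS libraries, and the difference from control was 0.22 (standard error 0.11, adjusted p = 0.311). Aldoc, the brain aldolase, measured 55.1, 56.5 and 53.9 FPKM in ACS, 58.8, 58.0 and 54.4 FPKM in DCS and 47.2, 55.1 and 60.5 FPKM in control libraries, where the controls spanned both other groups.

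An unadjusted p under 0.05 was reached in ACS over control by 7 of the 29 genes, beside 20.8% of all genes tested. For 7 of the 29, no ACS library fell within the range of the control libraries in FPKM, beside 27.6% of all genes. They were 4 genes higher in ACS (Gfap, Fgfr3, Aldh1l1, S100b), beside 12.3% of all genes, and 3 lower (Fabp7, Sox9, Mog), beside 15.3%. The lower ones include the most abundant gene of the set. Fabp7 was at 578, 540 and 617 FPKM in ACS libraries and 591, 597 and 600 FPKM in DCS libraries, against 682, 676 and 630 FPKM in control libraries. Both stimulated groups lay below every control library and overlapped each other. The log2 fold changes were -0.18 for ACS over control (standard error 0.05, adjusted p = 0.0896) and -0.16 for DCS over control (standard error 0.05, adjusted p = 0.692), which share the control libraries. With each library left out in turn, the ACS difference ran from -0.23 to -0.13. It passed the test in 1 of 9 fits, that without control library 3 (-0.22, adjusted p = 0.0307, against up to 0.260 in the others). An alternative test, DESeq2, called Fabp7 lower in ACS than in control libraries (adjusted p = 0.0136).

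Sox9 encodes a transcription factor of the astrocyte lineage that progenitors also carry. Its level was 8.30, 6.57 and 7.39 FPKM in ACS libraries, 9.19, 8.05 and 9.78 FPKM in DCS libraries, and 8.71, 9.03 and 10.5 FPKM in control libraries. ACS lay below control and overlapped DCS. The log2 fold change was -0.33 for ACS over control (standard error 0.11, adjusted p = 0.118) and -0.26 for ACS over DCS (standard error 0.11, adjusted p = 0.334). DESeq2 called Sox9 lower in ACS than in control libraries (adjusted p = 0.0307).

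Of the secreted proteins Apoe and Clu, neither was called with edgeR. Apoe was at 169, 176 and 208 FPKM in ACS libraries, 165, 168 and 191 FPKM in DCS libraries, and 152, 142 and 176 FPKM in control libraries. The 3 groups overlapped, and library 3 was the highest of each group. ACS over control was 0.25 (standard error 0.09, adjusted p = 0.165), one of the unadjusted p-values under 0.05. DESeq2 called Apoe higher in ACS than in control libraries (adjusted p = 0.0391). Clu, a chaperone also known as apolipoprotein J, was at 28.9, 32.1 and 30.9 FPKM in ACS libraries, 26.6, 34.8 and 28.0 FPKM in DCS libraries and 25.5, 29.3 and 29.4 FPKM in control libraries, with ACS over control at 0.14 (95% interval -0.08 to 0.36).

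**Figure D3:**
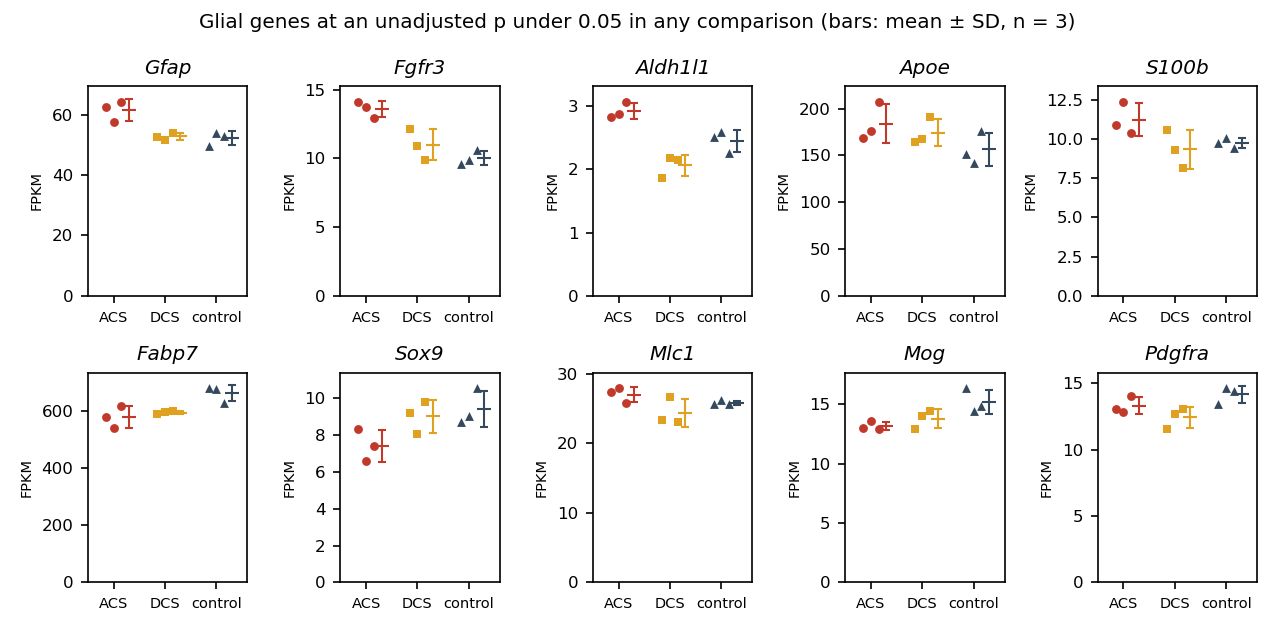
FPKM per library, from 0, of the 10 genes with an unadjusted p under 0.05 in any comparison, with ACS, DCS and control libraries from left to right and the mean ± SD of each group (n = 3) beside its points. The ACS libraries of Gfap and Fgfr3 stand above all others, Aldh1l1 runs in 3 separate bands, and Fabp7 is lower in both stimulated groups than in control libraries.

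The genes of glutamate handling and of membrane contacts gave no call. Glul was at 127, 128 and 144 FPKM in ACS libraries, 128, 133 and 146 FPKM in DCS libraries, and 129, 137 and 145 FPKM in control libraries. The groups cover the same range, and ACS over control was -0.03 (95% interval -0.17 to 0.11). Slc1a2 ranged between 11.1 and 15.1 FPKM over the 9 libraries. Mlc1, a membrane protein of astrocyte endfeet, was at 27.3, 28.0 and 25.8 FPKM in ACS libraries, 23.4, 26.7 and 23.0 FPKM in DCS libraries and 25.6, 26.2 and 25.7 FPKM in control libraries, and its ACS over DCS value of 0.17 (standard error 0.06, adjusted p = 0.270) did not pass. Gja1, the gap junction protein connexin 43, was at 12.1, 13.0 and 15.2 FPKM in ACS libraries, 13.1, 12.9 and 15.6 FPKM in DCS libraries and 14.4, 13.6 and 14.4 FPKM in control libraries, again with overlap of all groups.

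Single libraries stood apart for 2 astrocyte genes. Aqp4, the water channel of astrocyte endfeet, was at 15.3, 16.9 and 20.8 FPKM in ACS libraries, 13.9, 14.0 and 3.17 FPKM in DCS libraries and 17.4, 3.14 and 16.8 FPKM in control libraries, so that DCS library 3 and control library 2 were far below the rest. Slc1a3 was at 53.5 FPKM in ACS library 1, against 115 and 125 FPKM in the other ACS libraries, 113, 114 and 120 FPKM in DCS libraries and 126, 124 and 114 FPKM in control libraries. No other astrocyte gene of at least 1 FPKM shared these drops, which were not low in depth (1210 estimated counts in the lowest Aqp4 library and 11304 in the Slc1a3 library). Each of these 2 genes has 4 transcripts in the table. Of 8260 genes with a mean estimated count of at least 1000, 1.25% had a library under 0.5 of the gene's median, namely 1.04% of genes with 1 annotated transcript and 1.66% of genes with more. The part of transcript assignment in these values was not tested.

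The fitted changes of Aqp4 and Slc1a3 depended on those libraries. Aqp4 in ACS over control was 0.53 (standard error 0.62, adjusted p = 0.678) with all libraries and 0.07 (adjusted p = 0.813) without control library 2 and DCS library 3, an alternative chosen after seeing the data. ACS over DCS of Aqp4 was 0.79 (adjusted p = 0.635) with all libraries and 0.35 (adjusted p = 0.301) without these libraries. Slc1a3 in ACS over control was -0.30 (standard error 0.24, adjusted p = 0.514) with all libraries and -0.01 (adjusted p = 0.970) without ACS library 1. Gfap (53.9 and 54.0 FPKM) and Fgfr3 (9.87 and 9.89 FPKM) showed no such drop in control library 2 and DCS library 3. The Fgfr3 values were however near the lowest of its 9 libraries, 9.60 FPKM. Without control library 2 and DCS library 3, ACS over control was 0.28 for Gfap and 0.44 for Fgfr3, about as large as with all. The adjusted p was then 0.0818 for Gfap and 0.0556 for Fgfr3, so that 0 of the 29 genes were called.

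**Figure D4:**
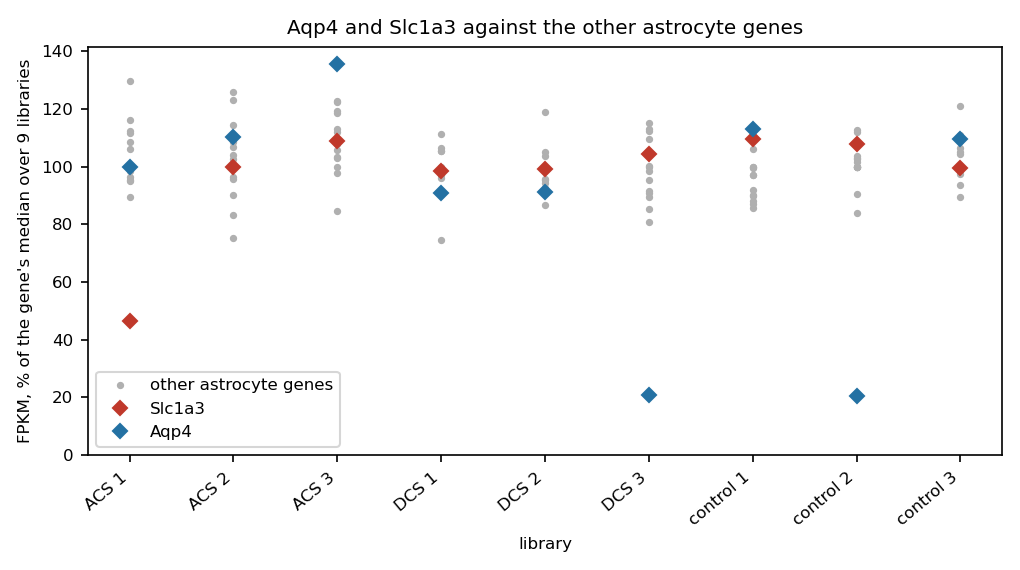
FPKM of each astrocyte gene with a mean of at least 1 FPKM in each library, as a percentage of that gene's median over the 9 libraries, with ACS, DCS and control libraries from left to right. Aqp4 is low in DCS library 3 and control library 2, Slc1a3 in ACS library 1, and the other astrocyte genes (grey) stay together there.

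In the oligodendrocyte lineage no gene passed the edgeR test in any comparison, and DESeq2 and limma called none either. An unadjusted p under 0.05 was reached by 1 gene in ACS over control (Mog), 1 in DCS over control (Pdgfra) and 0 in ACS over DCS, beside 20.8%, 7.09% and 13.9% of all genes. The 13 genes of at least 1 FPKM had log2 fold changes of -0.19 to 0.15 for ACS over control, with a median of -0.07. Their median size without sign was 0.09, against 0.15 over all genes tested.

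The transcription factors that specify the lineage lay in the same range in all groups. Olig1 was at 76.1, 83.1 and 88.4 FPKM in ACS libraries, 80.9, 80.4 and 97.6 FPKM in DCS libraries and 72.7, 76.6 and 94.4 FPKM in control libraries. Olig2 was at 37.9, 37.7 and 42.3 FPKM in ACS libraries, 34.7, 35.0 and 44.8 FPKM in DCS libraries and 38.0, 37.9 and 42.0 FPKM in control libraries. Library 3 was the highest of each group for both, and ACS over control was 0.04 for Olig1 (95% interval -0.19 to 0.26) and 0.01 for Olig2 (-0.19 to 0.22). The same number was highest in all 3 groups for 6 of the 29 genes (20.7%), beside 15.0% of all genes tested, and it was library 3 for 5 of them (17.2% of the 29), beside 8.35% of all genes, although the numbers do not mark a shared culture in the labels. Sox10, a factor of the whole lineage, ranged from 5.60 to 6.76 FPKM over the 9 libraries, and Myrf, the factor that starts myelin gene expression, from 4.87 to 6.07 FPKM.

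Of the genes that mark precursors, Pdgfra, their receptor for platelet-derived growth factor, was at 13.0, 12.9 and 14.0 FPKM in ACS libraries, 11.6, 12.6 and 13.1 FPKM in DCS libraries, and 13.4, 14.6 and 14.4 FPKM in control libraries. The DCS libraries lay below the control libraries, and DCS over control was -0.20 (standard error 0.06, adjusted p = 0.692). Gpr17, a receptor of committed precursors, varied more, with 5.55, 5.96 and 7.17 FPKM in ACS, 7.25, 5.64 and 6.60 FPKM in DCS and 6.83, 5.37 and 8.59 FPKM in control libraries. Cspg4, the proteoglycan NG2, ranged from 2.06 to 2.70 FPKM over the 9 libraries.

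Among the myelin genes, Cnp was at 27.2, 30.8 and 30.2 FPKM in ACS libraries, 28.8, 31.5 and 29.7 FPKM in DCS libraries and 29.3, 30.6 and 33.7 FPKM in control libraries. Mbp was at 26.1, 32.4 and 26.4 FPKM in ACS libraries, 28.7, 29.8 and 28.1 FPKM in DCS libraries and 25.3, 23.0 and 28.9 FPKM in control libraries. The groups of both genes overlapped, and the Mbp difference of 0.15 for ACS over control had a 95% interval of -0.06 to 0.36. Ugt8, which makes the galactolipid of myelin, ranged from 3.95 to 5.15 FPKM, Mag from 1.74 to 2.81 FPKM and Cldn11, the tight junction protein of myelin, from 1.55 to 2.86 FPKM over the 9 libraries.

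Mog encodes a protein of the outer myelin surface, and its mean of 14.1 FPKM was above that of Mag. It was at 13.0, 13.6 and 13.0 FPKM in ACS libraries and 13.0, 14.0 and 14.4 FPKM in DCS libraries, against 16.4, 14.4 and 14.9 FPKM in control libraries. ACS lay below control, at -0.19 (standard error 0.07, adjusted p = 0.173), and DCS over control was -0.15 (adjusted p = 0.695). In the table's coordinates the end of Mog overlaps that of Zfp57, a zinc finger gene on the opposite strand, by 117 bases. Zfp57, named here after its values were seen, was at 28.9, 26.3 and 31.4 FPKM in ACS libraries, 29.1, 29.9 and 32.5 FPKM in DCS libraries and 33.8, 34.2 and 33.3 FPKM in control libraries, with log2 fold changes of -0.21 for ACS (adjusted p = 0.108) and -0.16 for DCS over control. The library preparation marked strand, but whether the counting used it is not given in the sources used here, so the Mog values are uncertain and the part of Zfp57 reads in them was not tested. Of the other 29 genes, none overlaps an entry averaging at least 1 FPKM.

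DCS gave no call among the glial genes. None of the 29 passed the test against control, where 0.0123% of all genes did (2 genes), and at an unadjusted p under 0.05 there were 2, Pdgfra and Fabp7, both lower, beside 7.09% of all genes in either direction and 3.05% lower. DESeq2 also called none of the 29, beside 0.234% of the 16232 genes that it gave an adjusted p. Groups did not overlap for 3 genes, all lower in DCS (Aldh1l1, Fabp7, Pdgfra), beside 11.1% of all genes tested in either direction and 4.65% lower. The median log2 fold change over the 29 genes was -0.07.

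Between the currents, ACS over DCS, none of the 29 genes passed the edgeR test, beside 0.633% of all genes. At an unadjusted p under 0.05, 5 were higher in ACS (Gfap, Aldh1l1, Fgfr3, Mlc1, S100b) and 1 was lower (Sox9), beside 13.9% of all genes in either direction (7.22% higher and 6.66% lower). The ACS and DCS libraries did not overlap for 4 genes, all higher in ACS (Gfap, Aldh1l1, Aqp4, Fgfr3), beside 22.1% of all genes in either direction and 8.92% higher, and all 4 are astrocyte genes. DESeq2 called 3 of them, Gfap (adjusted p = 0.000740), Aldh1l1 (0.00696) and Fgfr3 (0.00732), all higher in ACS. It called 5.04% in either direction of the 13089 genes that it gave an adjusted p. The test of ACS against DCS uses the same ACS libraries as that against control.

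Further genes of the same cell types were counted to set the 30 in context. Of 16 other astrocyte genes tested, 2 rose in ACS against control and none fell, beside 2.83% and 1.33% of all genes. DESeq2 called 6 higher and 0 lower, beside 6.89% higher of the 13717 genes that it gave an adjusted p. Plpp3, a lipid phosphatase of astrocytes, was at 24.5, 23.5 and 24.5 FPKM in ACS libraries, 19.0, 20.1 and 21.5 FPKM in DCS libraries and 19.9, 20.2 and 19.5 FPKM in control libraries. It rose against control (log2 fold change 0.30, adjusted p = 0.0158) and against DCS (0.28, adjusted p = 0.0469). The ACS libraries of Plpp3 lay above all others. Its log2 fold change stayed between 0.27 and 0.32 against control and between 0.24 and 0.32 against DCS over 20 alternatives. The call against control missed the threshold without ACS library 1, ACS library 3, control library 1 or control library 2 (adjusted p up to 0.0728), and that against DCS without any of 7 libraries, all but DCS library 3 and control library 3 (up to 0.190) and in 6 of 11 other settings.

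Of 17 reactive astrocyte genes tested, none rose in ACS against control with edgeR or DESeq2 (1 was higher and 3 were lower at an unadjusted p under 0.05, beside 20.8% of all genes in either direction). With edgeR 1 fell, beside 1.33% of all genes called lower, and with DESeq2 2 were lower, Vim and S100a10. DESeq2 called 5.15% lower of the 13717 genes that it gave an adjusted p. The edgeR call was Vim, which encodes the filament protein vimentin of radial glia and astrocytes. Vim is also in the list of 10 radial glia and progenitor genes. Of these, Vim and Hes5, a target of Notch signaling in progenitors, fell with edgeR and none rose. Over all genes, 1.33% were called lower and 2.83% higher. DESeq2 called 3 lower, Vim, Hes5 and also Tnc, which like S100a10 is named after its values were seen. Hes5 was at 1.67, 1.296 and 1.95 FPKM in ACS libraries, 5.02, 4.50 and 4.50 FPKM in DCS libraries and 3.86, 5.37 and 5.37 FPKM in control libraries, with log2 fold changes of -1.54 for ACS over control and -1.47 for ACS over DCS and adjusted p = 0.00612 against control and 0.0208 against DCS. Vim was at 136, 145 and 146 FPKM in ACS libraries, 161, 172 and 178 FPKM in DCS libraries and 160, 168 and 164 FPKM in control libraries (-0.19 for ACS over control, adjusted p = 0.0461). The ACS libraries of both genes were below all others. The Hes5 call against control held without any 1 library (adjusted p up to 0.0378) and missed the threshold without control library 2 and DCS library 3 together (0.0513). That against DCS missed it without ACS library 1, ACS library 2, DCS library 1 or DCS library 2 (up to 0.0948), with log2 fold changes of -1.61 to -1.11 over 20 alternatives. The Vim call missed it without any of 7 libraries, all but DCS library 3 and control library 3 (up to 0.173), and in 5 of 11 other settings, with log2 fold changes of -0.21 to -0.16 over all 20.

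No gene was called in any comparison among 11 other precursor genes, 8 genes of newly formed oligodendrocytes and 14 other myelin genes tested with edgeR. At an unadjusted p under 0.05, ACS over control gave 1, 0 and 1 of them, beside 20.8% of all genes. DESeq2 called 2, Cacng4 of precursors and Tspan2 of myelin, both higher in ACS than in DCS libraries and named after their values were seen. In ACS over DCS, DESeq2 called 5.04% of the 13089 genes that it gave an adjusted p, in either direction. The highest of them were Ptprz1, a phosphatase receptor of precursors and radial glia, at 128, 129 and 131 FPKM in ACS libraries against 142, 139 and 129 FPKM in control libraries, and Fyn, a kinase that neurons also carry, at 98.6, 85.5 and 82.4 FPKM in ACS libraries against 90.9, 81.4 and 84.6 FPKM in control libraries. The ACS and control libraries of both genes overlapped. The DCS libraries of Ptprz1 lay below those of both other groups, with a log2 fold change of -0.13 over control (edgeR adjusted p = 0.692). Tf, transferrin, was at 20.2, 20.7 and 20.7 FPKM in ACS libraries against 19.7, 19.6 and 19.1 FPKM in control libraries, and did not overlap between these groups (log2 fold change 0.09, adjusted p = 0.315). Of the 14 other myelin genes tested, 5 were higher and 1 lower without overlap in ACS against control, beside 12.3% and 15.3% of all genes. Their median log2 fold change was 0.28 over control, with 12 of 14 positive, and 0.24 over DCS, with 13 positive. However, 13 of the 18 in the table averaged under 1 FPKM.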

How the data were processed

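Polyadenylated RNA of 9 libraries in 3 groups was analysed, with groups taken from the sample labels. The authors trimmed the reads (cutadapt 1.9 in the labels, fastp in the paper), aligned them with HISAT2 2.0.4 and quantified each library with StringTie 1.3.4d; the labels also name UMI-tools, and the genome is named Rattus norvegicus GRCh38 in the paper, where GRCh38 is a human build name. The FPKM values and the estimated counts were both deposited by the authors in 1 table, and FPKM of 0.0001 at a count of 0 was set to 0. Of estimated counts from 1 to 15, 34.1% were 4, 8 or 12, against 20.0% if even, so a fragment may add about 4, and the totals divided by 4 are 12259853 to 17172690.

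Estimated counts were tested with edgeR 4.0.16 (R 4.3.3), with TMM scaling, filterByExpr (minimum count 10, minimum total 15, which left out 16339 entries), and the quasi-likelihood F test over all 9 libraries (6 residual degrees of freedom, common biological coefficient of variation 0.218). Benjamini-Hochberg adjustment ran over the 16284 genes of each comparison, and a call is an adjusted p under 0.05. The script was tested on simulated data. Differences between groups are on the log2 scale, and levels between genes are compared in FPKM. Alternatives were other filters and scalings, DESeq2 1.42.0, limma 3.58.1 on log2(FPKM + 1) and log2(FPKM + 0.1), counts divided by 4, a fit of only the 6 libraries compared, a block for the replicate number, and leaving out each library.

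The genes and lists were chosen with earlier results of these data known. Values per library are given for genes called or with an unadjusted p under 0.05 in any comparison and for the 2 highest genes of each role, and of the further lists for called genes or, with none, the highest gene. Same-numbered libraries did not deviate together (correlations of -0.05 to 0.06 over 9 pairs), so the numbers were not used as pairs. Promoters came from a RefSeq table of GRCr8, which was used for no coordinate of the expression table. Some genes of the further lists are counted there and not reported here by name.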

Additional observations from a re-analysis of the deposited data

How the results depend on the processing

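Single genes were refitted where the unadjusted p was under 0.05 or the gene was called, and for Aqp4 and Slc1a3. Among these the sign changed only for Aqp4 and Slc1a3, neither past the threshold in any setting. Aqp4 in DCS over control was 0.17 without DCS library 3, 0.06 without control library 1 and 0.01 without control library 3, against -0.26 with all libraries and a range of -0.72 to 0.17 with single libraries left out. Slc1a3 in ACS over DCS was 0.072 without ACS library 1, against -0.22 and a range of -0.43 to 0.072. The summed astrocyte FPKM, at -0.07 for ACS minus control and -0.06 for DCS minus control on the log2 scale, was 0.043 and 0.024 without Fabp7.

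The number of glial genes called in ACS over control was 2. It was 1 with the 6 libraries alone, 0 to 3 with single libraries left out and 0 without control library 2 and DCS library 3. With DESeq2 it was 5, with Apoe added as higher and Fabp7 and Sox9 as lower. DESeq2 called 6.89% higher and 5.15% lower of the 13717 genes that it gave an adjusted p. In ACS over DCS the number of glial genes called was 3 with DESeq2 and 0 otherwise.

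Over all genes, ACS over control gave 678 calls, and 1652 with DESeq2, 160 without control library 2 and DCS library 3 and 138 to 1431 with single libraries left out. DCS over control gave 2, and 38 with DESeq2, 1 with limma on log2(FPKM + 1), the 6 libraries alone or counts divided by 4, and 1 to 47 with single libraries left out. ACS over DCS gave 103, and 660 with DESeq2, 64 and 65 with limma at pseudocounts of 1 and 0.1, 39 without control library 2 and DCS library 3 and 27 to 184 with single libraries left out. The cause of these differences was not tested, and fewer samples entered each fit that left libraries out.

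With the replicate number as a block, ACS over DCS gave 59 calls and DCS over control 1. Among the glial genes the block added Apoe (adjusted p = 0.0313) and put Gfap at 0.0506. The labels give no meaning to the numbers.

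Gjb6 and Mobp were too low in these libraries for a difference to be detectable.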
